A study of Homo sapiens with 2 samples.

Results

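The genes described here are those of the myeloid colony-stimulating factor axes: the ligands *CSF1*, *IL34* and *CSF3* and the receptor genes *CSF1R*, *CSF2RA*, *CSF2RB*, *CSF3R*, *IL3RA* and *IL5RA*. They were chosen by symbol, 9 of the 36601 genes in the count tables, by a rule that uses no level, although the set was proposed with earlier results of these data known. The cells came from blood-generating heart-forming organoids (BG-HFOs), Matrigel-embedded aggregates of the human embryonic stem cell line hES3 NKX2.5-eGFP (eGFP is read from the *NKX2.5* locus, and 1 line was used) that form heart muscle, vessels, mesenchyme and blood together. Organoids 32.7 and 33.10 were dissociated on day 14 and sequenced as 1 droplet-based 3′ library each, so the design holds 1 condition with n = 2 and the comparisons run between lineages. Both received the same additions: CHIR and IWP2 to turn WNT signalling up and then down, BMP4, bFGF, VEGF and SHH, and a cytokine mix that included SCF, EPO, IL-6, IL-11, IGF-1, FLT3 ligand and IL-3. IL-3 was therefore supplied with the medium, whereas the culture methods name no CSF1, CSF2 (GM-CSF), CSF3 (G-CSF) or IL-5.

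The cytokines of these axes steer blood cells into the myeloid branches. CSF1 and IL34 are alternative ligands of the tyrosine kinase CSF1R, on which most tissue macrophages depend, including those of the yolk sac and fetal heart, whereas CSF3 acts through CSF3R on the neutrophil branch. CSF2RA, IL3RA and IL5RA are the ligand-binding chains for CSF2, IL-3 and IL-5, and each must join the shared chain CSF2RB to signal. IL5RA is a textbook receptor of eosinophils.

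The libraries held 16866 and 19948 barcodes with 191152562 and 233818881 unique molecular identifiers (UMIs, each counting 1 captured transcript), and 16792 and 19893 cells passed the quality limits. Cells were gated on raw UMIs of lineage genes that include no gene of these axes, which placed 9940 and 12032 cells in 1 lineage each. Of the cells left over, 2533 and 3294 were set aside as mixed, and the rest passed no gate. Mixed cells passed gates of different families, had no clear myeloid gate, or passed both the epicardial and LUM-high stromal gates. The libraries had 100 barcodes in common, 0.593% and 0.501% of each. The myeloid lineages were small and more numerous in organoid 32.7, with 536 and 225 C1Q-positive macrophages, 119 and 22 C1Q-negative monocytic cells, 161 and 29 *MPO*-type neutrophil precursors and 124 and 85 eosinophil-lineage cells. There were 65 and 109 progenitor-like cells, gated on *MYB* and related genes, that passed none of the other gates. For 4 of 4 genes in each lineage checked, markers kept out of the gates were over 2 times the median of other lineages in both organoids. The exception was the progenitor-like cells, where *CD34* and *ANGPT1* passed and *SOX4* and *MSI2* did not. Each median left out the other endothelium, the other stroma and the partner of a vessel or stromal pair. These partners shared the same markers, so the check does not bear on the arterial-venous or epicardial-LUM splits. The medians came mostly from non-myeloid lineages, so the check does not tell myeloid lineages apart. Some passes came from low levels, such as *SIGLEC8* at 1.76 and 4.63 CPM in eosinophil-lineage cells. The other endothelium and the other stroma had no such markers. Levels are given as CPM, UMIs of the gene per 1000000 UMIs summed over a lineage, and are compared between lineages within a gene, since genes of different length are not captured alike.

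The receptor genes can be seen beside the letters before their start sites. RefSeq promoter windows (GRCh38.p14) were held for 5 of the 9 genes and 7 starts, and the 250 bases before each start were searched on both strands for 4 short motifs that do not overlap one another in these windows: the PU.1-type core GAGGAA, the C/EBP-type TTNNGNAA, the RUNX-type TGTGGT, and AGATAA of the erythroid factor family of *GATA1*. The promoter runs stop where an annotated exon begins, capitals mark the matches, and the short *CSF1R* site is shown apart because it lies within annotated exon bases. They are shown because *CSF1R*, *CSF2RA* and *CSF3R* were raised together in the myeloid lineages. By contrast, *IL5RA* was highest in eosinophil-lineage cells and *IL3RA* was shared with muscle and vessel cells.
CSF1R, a start inside the gene, chr5:150086608-150086804, minus strand: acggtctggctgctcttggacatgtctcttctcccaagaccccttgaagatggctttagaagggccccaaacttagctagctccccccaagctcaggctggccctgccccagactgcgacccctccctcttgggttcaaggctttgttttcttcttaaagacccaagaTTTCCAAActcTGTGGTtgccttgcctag
CSF1R, site next to that start, chr5:150086557-150086580, minus strand: aaggagGAGGAAGAGGAAaacaag
CSF2RA, chrX:1268564-1268799, plus strand: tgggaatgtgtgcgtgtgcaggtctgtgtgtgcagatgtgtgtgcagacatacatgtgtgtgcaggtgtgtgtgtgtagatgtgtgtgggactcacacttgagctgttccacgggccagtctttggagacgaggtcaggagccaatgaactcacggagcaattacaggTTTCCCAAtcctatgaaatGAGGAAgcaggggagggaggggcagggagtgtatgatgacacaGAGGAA
CSF3R, chr1:36483315-36483564, minus strand: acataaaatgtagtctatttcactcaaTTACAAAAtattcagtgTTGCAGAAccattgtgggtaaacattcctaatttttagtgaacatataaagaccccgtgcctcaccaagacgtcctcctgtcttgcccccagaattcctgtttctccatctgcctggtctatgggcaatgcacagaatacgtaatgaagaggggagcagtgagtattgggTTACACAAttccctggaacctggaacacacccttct
IL3RA, chrX:1336535-1336615, plus strand: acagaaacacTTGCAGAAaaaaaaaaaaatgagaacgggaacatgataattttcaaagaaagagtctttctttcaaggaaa
IL5RA, chr3:3110375-3110624, minus strand: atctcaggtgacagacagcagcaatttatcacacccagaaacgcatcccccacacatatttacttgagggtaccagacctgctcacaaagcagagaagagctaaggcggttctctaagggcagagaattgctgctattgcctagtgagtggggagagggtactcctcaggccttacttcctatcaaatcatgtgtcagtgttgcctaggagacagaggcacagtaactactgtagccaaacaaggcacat

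The *CSF1R* start inside the gene held a pair of adjoining GAGGAA matches, 20 to 15 and 14 to 9 bases before it, with TGTGGT and TTNNGNAA further out, and *CSF2RA* held 2 GAGGAA matches and 1 TTNNGNAA. The *CSF3R* window printed above held 3 TTNNGNAA matches. The *IL5RA* window, which also belongs to a start inside the gene, held none of the 4 motifs. The *CSF1R* start at the 5′ end of the gene also held none, and another *CSF3R* start, whose window is all annotated exon, held GAGGAA 111 to 106 bases before it. Among all 35116 promoters of the same length GAGGAA was found in 23.6%, TTNNGNAA in 33.2%, AGATAA in 9.17% and TGTGGT in 11.0%, so most of these letters are common. A match describes the letters and is not evidence that a factor binds there.

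In GRCh38, *CSF1* lies on chromosome 1 (109910242 to 109930992, plus strand), *IL34* on chromosome 16 (70579895 to 70660682, plus) and *CSF3* on chromosome 17 (40015361 to 40017813, plus). *CSF1R* lies on chromosome 5 (150053291 to 150113372, minus), *CSF2RB* on chromosome 22 (36913628 to 36940439, plus), *CSF3R* on chromosome 1 (36466043 to 36483278, minus) and *IL5RA* on chromosome 3 (3066324 to 3126613, minus). *CSF2RA* (1268800 to 1310381) and *IL3RA* (1336616 to 1382689) are neighbours on the plus strand of chromosome X. Reads in introns were counted, so neighbours on the same strand bear on the counts. *PDGFRB* ends 466 bases upstream of *CSF1R* on the same strand, and the non-coding *CNTN4-AS1* overlaps *IL5RA* on its strand.

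Among the ligands, *CSF1* was high in venous endothelium, stroma and megakaryocytes of both organoids, and lower in the macrophages that carry its receptor gene. Venous endothelium held 24.5 CPM in organoid 32.7 and 26.0 in organoid 33.10. LUM-high stroma, the *LUM*- and *DCN*-rich fibroblast-like cells, held 21.2 and 27.8 CPM, epicardial-type stroma 17.2 and 25.1, and the remaining stroma 22.3 and 22.2. Megakaryocytes were the only blood lineage at a similar level in both organoids, at 16.7 and 16.7 CPM. The ranges of LUM-high and epicardial-type stroma overlapped with those of venous endothelium and of the remaining stroma, whereas venous endothelium lay slightly above the remaining stroma in both organoids. In organoid 33.10, 1 epicardial-type cell held 35 of the 248 *CSF1* UMIs of that lineage. Without the 2 highest cells of each lineage, epicardial-type stroma was at 16.0 and 21.0 CPM. The remaining stroma was then at 21.8 and 21.8 and venous endothelium at 23.1 and 24.5, so the epicardial overlap was lost. Cardiomyocytes lay lower at 5.96 and 6.51 CPM, arterial endothelium at 2.46 and 2.98, erythroid cells at 0.757 and 1.52 and macrophages at 5.42 and 0.812. By family, stroma held 40.8% and 35.2% of all *CSF1* UMIs while contributing 23.1% and 20.1% of the UMIs of the libraries.

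**Figure D1:**
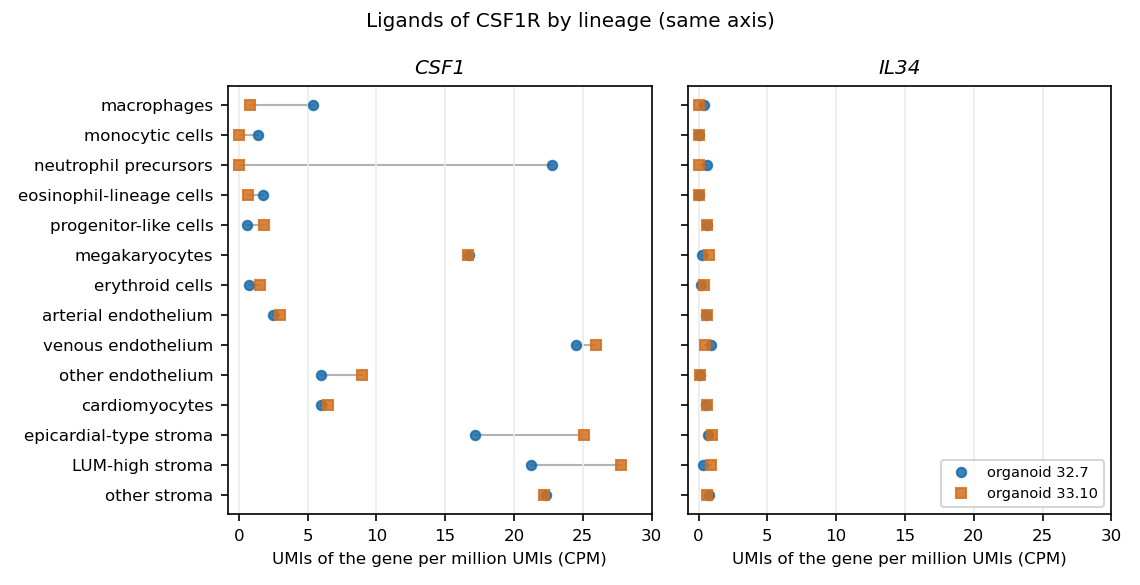
Level of *CSF1* (left) and *IL34* (right) in 14 lineages, in UMIs per 1000000 UMIs of the lineage (CPM) on the same axis, with a circle for organoid 32.7 and a square for organoid 33.10. *CSF1* is high in venous endothelium, the 3 stromal lineages and megakaryocytes, and its neutrophil-precursor values of 22.8 and 0.0 CPM are far apart, while *IL34* stays at or below 1.01 CPM in each lineage.

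Within the endothelium, *CSF1* separated the vessel types. The arterial values of 2.46 and 2.98 CPM lay far below the venous values of 24.5 and 26.0, with no overlap, a log2 fold change of -3.10 ± 0.43 (SE, n = 2 organoids, adjusted p = 1.46e-05, by edgeR's quasi-likelihood F-test, adjusted over all genes by the Benjamini-Hochberg method). At a fixed depth of 4000 UMIs per cell, *CSF1* was found in 9.25% of venous cells (exact 95% binomial interval 6.37 to 12.9) and 1.20% of arterial cells (0.711 to 1.89) in organoid 32.7. The shares were 8.70% (6.10 to 11.9) and 1.26% (0.733 to 2.00) in organoid 33.10. No venous cell held more than 4 *CSF1* UMIs in either organoid, so the level was spread over many cells. The gate genes of *CSF1*-rich lineages were also higher in venous cells, at 229 and 192 against 49.2 and 39.4 CPM for the stromal genes summed and 171 and 222 against 30.1 and 49.2 CPM for the megakaryocyte genes, and their part in the difference was not tested. *IL3RA* ran the other way, at 52.4 and 42.1 CPM in arterial and 19.0 and 19.4 in venous endothelium (log2 fold change 1.41 ± 0.21, adjusted p = 2.56e-05). In this comparison 2 of the 7 genes tested were called against 20.8% of all genes.

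Compared with epicardial-type and LUM-high stroma, the mean of arterial and venous endothelium was lower in *CSF1* (log2 fold change -1.43 ± 0.28, adjusted p = 0.000177), a mean that joins a low arterial to a high venous value. *CSF2RB*, the shared signalling chain, was at 4.14 and 2.64 CPM in arterial and 4.86 and 2.26 in venous endothelium and at 0.288 to 0.606 CPM in the 2 stromal lineages (log2 fold change 2.93 ± 0.47, adjusted p = 1.33e-05). It was 3.71 in organoid 32.7 alone and 2.10 in organoid 33.10 alone. *IL3RA* was higher in endothelium as well (1.38 ± 0.15, adjusted p = 9.03e-08). *CSF1R*, *CSF2RA* and *CSF3R* were higher in stroma (log2 fold changes -1.86 ± 0.52, -2.47 ± 0.41 and -2.95 ± 0.51, adjusted p = 0.00398, 2.08e-05 and 3.88e-05), and their sizes differed between the organoids taken alone. In organoid 32.7 alone the fold changes were -1.10, -1.99 and -2.67, and in organoid 33.10 alone -2.80, -3.29 and -5.24. Venous endothelium of organoid 33.10 held 1 *CSF1R* UMI, 1 *CSF2RA* UMI and 0 of *CSF3R*. The sizes in that organoid alone therefore rest partly on counts at or near 0. The stromal levels behind these calls were only 1.15 to 8.08 CPM, beside cardiomyocyte levels of 1.54 and 0.733 CPM for *CSF1R*, 6.73 and 6.78 for *CSF2RA* and 2.76 and 2.29 for *CSF3R*. *PDGFRB*, the upstream neighbour of *CSF1R*, was at 61.3 to 112 CPM in the same stromal lineages and at 0.452 to 1.39 CPM in arterial and venous endothelium, and its part in the *CSF1R* difference was not tested. The 6 genes called of 7 stand against 56.2% of all genes in this comparison.

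Epicardial-type and LUM-high stroma did not separate in *CSF1* (log2 fold change -0.31 ± 0.37, adjusted p = 0.670). Only *IL3RA* passed, with 16.6 and 15.9 CPM in epicardial-type and 9.87 and 6.36 in LUM-high stroma (0.79 ± 0.22, adjusted p = 0.0259), 1 gene of 7 against 9.98% of all genes. The call was lost with doubled gate cutoffs (adjusted p = 0.0959) and with the gates as written at the start (adjusted p = 0.190). With organoid as a block 3451 genes were called in place of 1977, and *IL5RA*, at 0.0 and 0.303 against 1.20 and 1.09 CPM, went from an adjusted p of 0.0530 to 0.0195. *IL5RA* was also called without the filter on low counts (adjusted p = 0.00468), without cells above 40000 UMIs (0.0467) and by DESeq2 (0.0291).

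Megakaryocytes exceeded erythroid cells in 4 of the 7 genes, against 48.4% of all genes. *CSF1* had 120 and 291 UMIs in megakaryocytes and 9 and 35 in erythroid cells (log2 fold change 3.62 ± 0.47, adjusted p = 1.38e-06; 4.27 in organoid 32.7 alone and 3.32 in organoid 33.10 alone). The megakaryocyte UMIs were spread over 73 and 184 cells with at most 8 in any cell. *CSF2RB* was at 17.7 and 18.9 CPM in megakaryocytes and 4.88 and 5.89 in erythroid cells (1.60 ± 0.31, adjusted p = 0.000197). *CSF1R* (6.42 and 4.98 against 1.85 and 1.34 CPM) and *IL5RA* (2.23 and 2.35 against 0.505 and 0.779 CPM) also passed, at 1.69 ± 0.40 and 1.61 ± 0.52 (adjusted p = 0.00118 and 0.0135), from low levels. *CSF2RA* was at 0.837 and 0.573 CPM in megakaryocytes, below its cardiomyocyte levels of 6.73 and 6.78. *IL3RA*, at 11.3 and 9.51 CPM, was likewise below its cardiomyocyte levels of 52.1 and 66.3.

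The neutrophil precursors of organoid 32.7 appeared to hold *CSF1* at 22.8 CPM, but 2 of the 161 cells, with 37 and 34 UMIs, carried 95.9% of the 74 UMIs, and without them the level was 0.941 CPM. The 29 neutrophil precursors of organoid 33.10 held 0 *CSF1* UMIs, which allows up to 4.22 CPM. The tests of *CSF1* against monocytic cells (2 and 0 UMIs) and of eosinophil-lineage cells against neutrophil precursors returned log2 fold changes of 3.81 ± 1.17 and -3.72 ± 0.92 (adjusted p = 0.0384 and 0.0176). Without the 2 cells they were -0.62 and 0.70 (adjusted p = 0.915 and 0.883), so neither call describes the lineage. Macrophages of organoid 32.7 showed the same unevenness on a smaller scale, with 53.8% of 39 UMIs in 2 of 536 cells. *CSF1* and *CSF1R* were found together in 3 of 735 and 0 of 324 myeloid cells thinned to 4000 UMIs.

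*IL34*, the other ligand of CSF1R, was sparse, with 98 and 138 UMIs in the whole libraries. Its level did not exceed 1.01 CPM in any of the 14 lineages, and the leading lineages, epicardial-type stroma (0.721 and 1.01 CPM) and venous endothelium (0.925 and 0.452), had overlapping ranges. It did not pass the filter on low counts and was not tested. *CSF3* had 0 UMIs in organoid 32.7, which allows up to 0.0157 CPM, and 1 UMI in organoid 33.10, in a cell that passed no gate. Across the 28 lineage sums, 0 UMIs of *CSF3* allowed levels of up to 0.0968 CPM in the largest and 9.97 CPM in the smallest. Transcripts of the ligands for the other chains were also few: *IL3* had 0 UMIs in both libraries and *IL5* had 26 and 28, with no more than 1 in any cell. *CSF2* had 44 and 25 UMIs. Of these, 1 erythroid cell held 21, 1 mixed cell 10 and 1 megakaryocyte 9 in organoid 32.7, and 1 megakaryocyte held 8 in organoid 33.10.

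Among the receptors, *CSF1R* was the macrophage gene of the set. Macrophages held 279 and 245 CPM, monocytic cells 79.0 and 103, progenitor-like cells 53.2 and 38.8, neutrophil precursors 26.5 and 54.9 and eosinophil-lineage cells 2.93 and 12.6. Macrophages lay above monocytic cells and monocytic cells above progenitor-like cells in both organoids, whereas progenitor-like cells and neutrophil precursors changed places. At 4000 UMIs per cell *CSF1R* was found in 64.7% (59.8 to 69.4) and 62.9% (55.7 to 69.7) of macrophages and in 24.0% (16.0 to 33.6) and 20.0% (5.73 to 43.7) of monocytic cells. In cardiomyocytes, which should lack it, the share was 0.582% (0.159 to 1.48) and 0.230% (0.0278 to 0.827), with median depths of 9977 and 10264 UMIs before thinning against 9678.5 and 13126 in macrophages. Before thinning, 72.2% and 87.6% of macrophages and 1.50% and 0.753% of cardiomyocytes held a *CSF1R* UMI. In organoid 33.10, 2 of the 22 monocytic cells held 54.8% of the 31 *CSF1R* UMIs, and without them the level was 53.2 CPM. The *CSF1R* level of eosinophil-lineage cells rested on 5 and 19 UMIs, 60.0% and 63.2% of them in 2 cells.

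**Figure D2:**
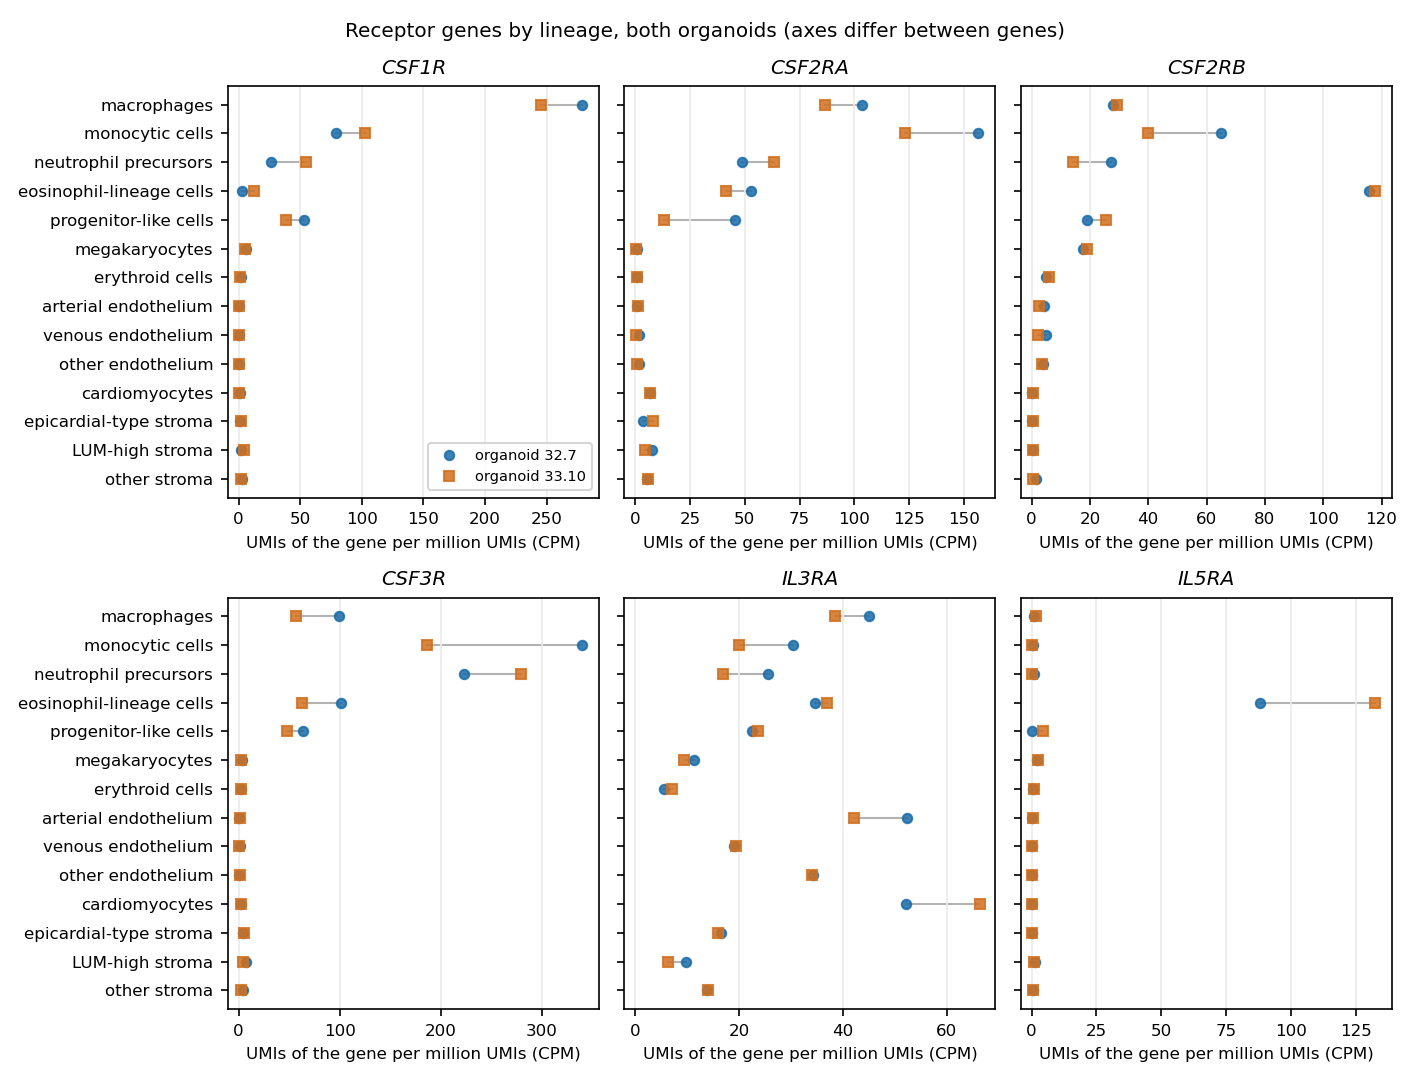
Levels of the 6 receptor genes in 14 lineages (CPM, with a separate axis for each gene), with a circle for organoid 32.7 and a square for organoid 33.10 and a grey line joining them. *CSF1R* peaks in macrophages, *CSF2RA* in monocytic cells, *CSF2RB* and *IL5RA* in eosinophil-lineage cells and *CSF3R* in monocytic cells and neutrophil precursors, whereas *IL3RA* is as high in cardiomyocytes and arterial endothelium as in blood lineages.

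*CSF3R*, the G-CSF receptor gene, was divided between monocytic cells (339 and 186 CPM) and neutrophil precursors (223 and 279 CPM), whose order was reversed between the organoids. Eosinophil-lineage cells held 101 and 62.8 CPM, macrophages 99.0 and 56.3 and progenitor-like cells 63.2 and 47.9. At 4000 UMIs per cell it was found in 73.0% (63.2 to 81.4) and 10 of 20 (27.2 to 72.8%) of monocytic cells and 57.3% (48.3 to 65.9) and 64.3% (44.1 to 81.4) of neutrophil precursors, beside 1.02% (0.411 to 2.09) and 0.459% (0.125 to 1.17) of cardiomyocytes. Endoderm, gated on *AFP* and other liver-type genes, held 59 and 5 *CSF3R* UMIs (55.6 and 19.9 CPM) in 22 of 108 and 2 of 14 cells. This lineage was too small for the tests.

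*CSF2RA*, the CSF2-binding chain, led in monocytic cells (157 and 123 CPM), followed in both organoids by macrophages (103 and 86.6). Neutrophil precursors (48.6 and 63.4 CPM) and eosinophil-lineage cells (52.8 and 41.7) came next and changed places between the organoids. Its shared partner *CSF2RB* had another order, with eosinophil-lineage cells highest (116 and 118 CPM), then monocytic cells (65.1 and 39.9) and macrophages (28.1 and 29.2). The monocytic level of organoid 33.10 rested on 12 UMIs, 66.7% of them in 2 of 22 cells, and without those cells it was 14.9 CPM, below the macrophages. Progenitor-like cells held 18.9 and 25.5 CPM, neutrophil precursors 27.4 and 14.1 and megakaryocytes 17.7 and 18.9. Cardiomyocytes held 0.221 and 0.458 CPM of *CSF2RB*. The chains of the CSF2 receptor were thus highest in different lineages.

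*IL5RA* was highest in eosinophil-lineage cells, with 88.0 and 132 CPM there. Among the 14 lineages tested, the next level was 2.23 CPM in megakaryocytes of organoid 32.7 and 4.24 CPM in progenitor-like cells of organoid 33.10, so the ratio to the runner-up was 39.4 and 31.2. The eosinophil gate genes summed to 343 and 1046 CPM in progenitor-like cells, and their part in that level was not tested. Of all *IL5RA* UMIs, the myeloid lineages held 46.9% and 38.5%, and mixed cells, with 29.2% and 34.2% of library UMIs, held 34.3% and 35.4%. The 2 and 3 basophil or mast cells, too few to test, held 2 and 1 *IL5RA* UMIs (52.5 and 19.3 CPM). At 4000 UMIs per cell it was found in 28.4% (19.9 to 38.2) and 32.9% (22.9 to 44.2) of eosinophil-lineage cells and in 0 of 687 and 0 of 871 cardiomyocytes, which allows shares of up to 0.536% and 0.423% (exact binomial). Before thinning, 45.2% and 65.9% of eosinophil-lineage cells held a UMI, at median depths of 7330.5 and 13318 UMIs. The 2 richest cells held only 14.0% and 13.0% of the UMIs.

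*IL3RA* did not follow the blood lineages. Its highest levels were in cardiomyocytes (52.1 and 66.3 CPM) and arterial endothelium (52.4 and 42.1), then in macrophages (45.0 and 38.4) and eosinophil-lineage cells (34.6 and 37.0), the other endothelium (34.3 and 34.1), monocytic cells (30.5 and 19.9), neutrophil precursors (25.5 and 16.9) and progenitor-like cells (22.5 and 23.6). Cardiomyocytes and arterial endothelium changed places between the organoids, and the ranges of arterial endothelium and macrophages overlapped. The lowest levels were in erythroid cells (5.64 and 7.14 CPM) and LUM-high stroma (9.87 and 6.36). At 4000 UMIs per cell *IL3RA* was found in 16.0% (13.3 to 19.0) and 20.1% (17.5 to 22.9) of cardiomyocytes, 18.8% (16.8 to 20.8) and 13.9% (12.1 to 15.8) of arterial endothelial cells and 3.63% (2.29 to 5.45) and 3.45% (2.62 to 4.46) of erythroid cells. The 8 endothelial gate genes summed to 78.1 and 86.4 CPM in cardiomyocytes and 2886 and 2669 CPM in arterial endothelium, and *CSF2RB* in cardiomyocytes was near 0 as given above. No test compared cardiomyocytes with another lineage.

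**Figure D3:**
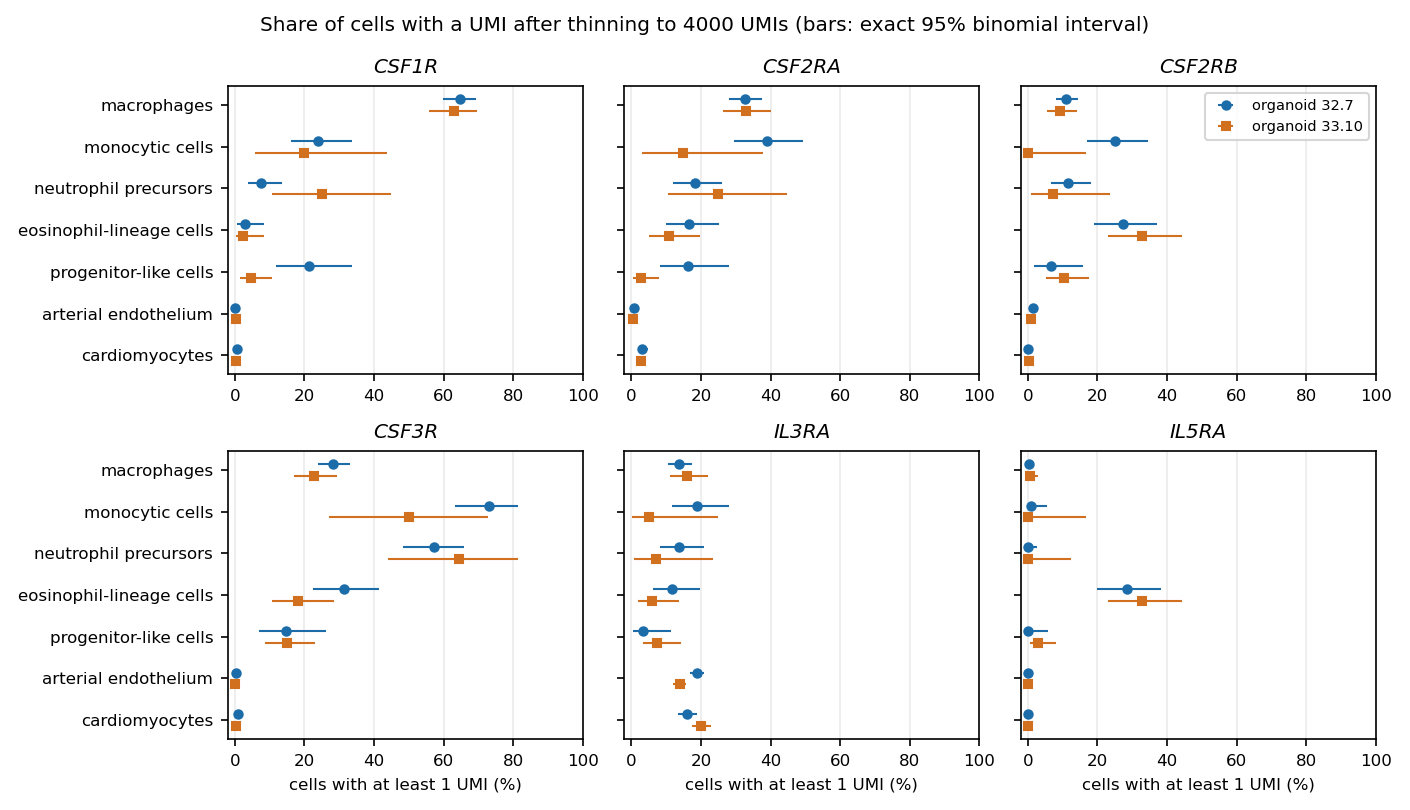
Percent of cells with at least 1 UMI of each receptor gene after thinning each cell to 4000 UMIs, in 7 lineages, with circles for organoid 32.7, squares for organoid 33.10 and bars for the exact 95% binomial interval, which covers counting error only. The small monocytic group of organoid 33.10 (20 cells at this depth) has the widest bars, and *IL3RA* is found in 16.0% and 20.1% of cardiomyocytes and 13.7% and 16.0% of macrophages.

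Macrophages differed from monocytic cells in opposite directions for *CSF1R* and *CSF3R*. Both groups were gated on day 14, and no path between them was tested. The neutrophil gate genes summed to 774 and 924 CPM in monocytic cells, 23.2 and 19.5 in macrophages and 9759 and 8524 in neutrophil precursors. The part of granulocytic cells in the differences was not tested. Compared with monocytic cells, macrophages had higher *CSF1R* (log2 fold change 1.59 ± 0.30, adjusted p = 0.00143) and lower *CSF3R* (-1.85 ± 0.34, adjusted p = 0.00111), with no overlap between the groups. These 2 of 7 genes stand against 10.5% of all genes. *CSF2RB* was lower by a fold change that missed the threshold (-1.06 ± 0.35, adjusted p = 0.0589, and 0.0439 with organoid as a block). It also passed with doubled gate cutoffs (adjusted p = 0.0156) and without the filter on low counts (0.00160). In organoid 33.10 the monocytic *CSF2RB* level rested on 12 UMIs, 66.7% of them in 2 of 22 cells. Without the 2 highest cells of each group it was 14.9 CPM, against 27.4 in macrophages, so the direction was reversed there. *CSF2RA* gave -0.62 ± 0.34 (adjusted p = 0.289, and 0.0442 without that filter) and *IL3RA* 0.53 ± 0.27 (adjusted p = 0.266). Calls over all genes split into 1215 higher and 859 lower with edgeR and 797 higher and 1274 lower with DESeq2, whose scaling shifted the median of all genes by -0.18 on the log2 scale. *CSF1R* and *CSF3R* kept their directions under both.

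Neutrophil precursors, compared with monocytic cells, had less of the CSF1 and CSF2 receptor genes whereas *CSF3R* was not shown to differ. *CSF1R* (log2 fold change -1.31 ± 0.36, adjusted p = 0.0213), *CSF2RA* (-1.45 ± 0.37, adjusted p = 0.0144) and *CSF2RB* (-1.32 ± 0.39, adjusted p = 0.0322) were lower. *CSF2RA* was -1.79 in organoid 32.7 alone and -0.78 in organoid 33.10 alone, where the groups held 29 and 22 cells. In organoid 33.10, 2 monocytic cells held 54.8% of the 31 *CSF1R* UMIs and 2 held 66.7% of the 12 *CSF2RB* UMIs. Without the 2 highest cells of each group, *CSF1R* was at 53.2 CPM in monocytic cells and 37.8 in neutrophil precursors there. *CSF2RB* was then at 14.9 and 7.40 CPM. All 3 calls were lost when 5% of free RNA was taken off (adjusted p = 0.104, 0.0530 and 0.108), at fold changes of -1.32, -1.44 and -1.31, and those of *CSF1R* and *CSF2RB* also without cells above 40000 UMIs (adjusted p = 0.0811 and 0.0990). *CSF3R* differed by -0.21 ± 0.34 (adjusted p = 0.808). With *CSF1*, discussed above, 4 of 7 genes were called against 10.8% of all genes, and DESeq2 split all calls into 813 higher and 1486 lower in place of 1138 and 999.

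Eosinophil-lineage cells, compared with neutrophil precursors, had more *IL5RA* and *CSF2RB* and less *CSF1R* and *CSF3R*. The neutrophil gate genes summed to 1229 CPM in eosinophil-lineage cells of organoid 32.7 and 31.7 in those of organoid 33.10, so the lineage was not alike in both. In organoid 32.7 *IL5RA* had 150 UMIs in eosinophil-lineage cells and 3 in neutrophil precursors, a ratio of 95.3 in CPM (counting interval 32.0 to 467). In organoid 33.10 it had 200 and 0 UMIs (adjusted p = 7.67e-07 over both organoids). That was at least 31.3-fold higher against a floor of 3 UMIs in the neutrophil-precursor sum. *CSF2RB* was higher (log2 fold change 2.33 ± 0.35, adjusted p = 0.000187), by 2.07 in organoid 32.7 alone and 3.14 in organoid 33.10 alone. *CSF3R* was lower (-1.55 ± 0.36, adjusted p = 0.0104), as was *CSF1R* (-2.19 ± 0.47, adjusted p = 0.00618, with -3.17 and -2.05 in the organoids alone). *CSF2RA* did not separate the lineages (-0.15 ± 0.38, adjusted p = 0.943). With *CSF1*, 5 of 7 genes were called against 5.25% of all genes.

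Relative to progenitor-like cells, the mean of macrophages, monocytic cells and neutrophil precursors was higher in *CSF3R* (log2 fold change 1.78 ± 0.32, adjusted p = 0.000360), *CSF2RA* (1.73 ± 0.34, adjusted p = 0.000646) and *CSF1R* (1.12 ± 0.27, adjusted p = 0.00466). *CSF2RA* was 1.20 in organoid 32.7 alone and 2.70 in organoid 33.10 alone, where its progenitor-like levels were 45.5 and 13.3 CPM. *CSF2RB* (0.73 ± 0.32, adjusted p = 0.118) and *IL3RA* (0.51 ± 0.23, adjusted p = 0.128) did not pass. With doubled gate cutoffs both passed, at 0.90 and 0.71 (adjusted p = 0.00606 and 0.0264). *CSF2RB* also passed without the filter on low counts (0.78, adjusted p = 0.0112). These chains for IL-3 were at 18.9 to 25.5 CPM in progenitor-like cells. The 3 of 7 genes called stand against 21.0% of all genes. Cells that passed a myeloid gate were by design kept out of the progenitor-like group. The part of that gating in these differences was not tested.

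**Figure D4:**
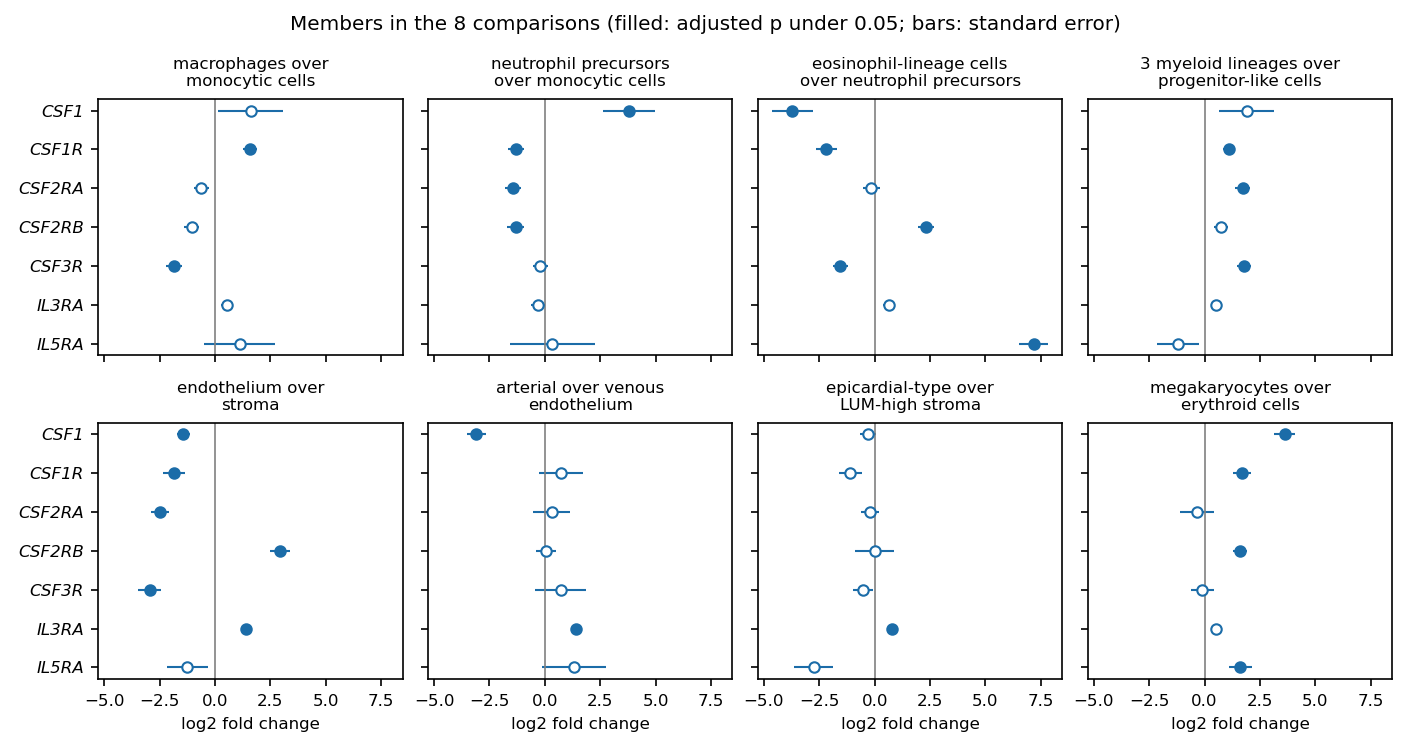
Log2 fold changes of the 7 genes tested in the 8 comparisons, with bars for the standard error (n = 2 organoids) and filled circles for adjusted p under 0.05 in edgeR's quasi-likelihood test. *IL5RA* in eosinophil-lineage cells over neutrophil precursors is the widest difference, and the 2 filled *CSF1* circles of the neutrophil-precursor panels rest on 2 cells.

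Co-detection was read at 4000 UMIs per cell. *IL5RA* and *CSF2RB* were found together in 14 of 102 and 10 of 82 eosinophil-lineage cells, 13.7% and 12.2%, beside 7.80% and 10.8% from the product of their separate shares. *CSF2RA* and *CSF2RB* met in 41 of 735 and 7 of 324 myeloid cells (5.58% and 2.16%, with products of 4.37% and 3.72%), so the organoids lay on opposite sides of the product. *IL3RA* and *CSF2RB* met in 26 and 8 of the same cells (3.54% and 2.47%, with products of 2.16% and 1.75%). *CSF1R* and *CSF3R* shared 69 of 402 and 27 of 194 macrophages, 17.2% and 13.9%, close to the products of 18.3% and 14.3%. At least 1 of the 6 receptor genes was found in 86.1% and 83.5% of macrophages, 87.0% and 65.0% of monocytic cells, 71.0% and 82.1% of neutrophil precursors and 71.6% and 68.3% of eosinophil-lineage cells, against 44.3% and 32.7% of progenitor-like cells.

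Of 42 other genes of these pathways (ligands and receptors, and the JAK, STAT, SOCS, kinase and adaptor genes downstream), 38 were tested. The 3 myeloid lineages had 16 higher and 3 lower than progenitor-like cells, against 21.0% of all genes called, with a list median of 0.32 beside -0.02 for all genes. The feedback inhibitor *SOCS3* (1.56 ± 0.39, adjusted p = 0.00550) and the adaptor *TYROBP* (1.34 ± 0.34, adjusted p = 0.00684) were among the higher. *TYROBP* was also 1 of the 6 general myeloid genes of which the macrophage and monocytic gates required 2. Its call, counted among the 16, is therefore not independent of the gates. The progenitor-like group also excluded every cell that passed a myeloid gate. *KIT*, the SCF receptor gene, was lower (-2.99 ± 0.56, adjusted p = 0.000489). Neutrophil precursors had 0 higher and 12 lower than monocytic cells (10.8% of all genes, median -0.43 beside 0.00), including *JAK2*, the kinase that CSF2RB binds, at 43.1 and 47.9 against 153 and 113 CPM (-1.67 ± 0.23, adjusted p = 8.40e-05). Macrophages had 1 higher and 4 lower than monocytic cells (10.5% of all genes, median -0.15 beside 0.17). The higher gene was *TREM2*, a lipid-sensing receptor of macrophages, at 35.8 and 48.7 against 1.39 and 6.64 CPM (4.08 ± 1.22, adjusted p = 0.0338). Both monocytic levels came from fewer than 3 UMIs, so the size of this difference is uncertain. Eosinophil-lineage cells had 1 higher and 2 lower than neutrophil precursors (5.25% of all genes, median -0.22 beside 0.00), the higher being the cytokine-induced inhibitor *SOCS1*, at 53.4 and 48.9 against 11.7 and 11.3 CPM (2.16 ± 0.43, adjusted p = 0.00308).

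Outside the myeloid branches the list had 18 higher and 10 lower genes in endothelium over stroma (56.2% of all genes, median 0.37 beside -0.05), 6 and 3 in arterial over venous endothelium (20.8%, 0.01 beside 0.04), 1 and 4 in epicardial-type over LUM-high stroma (9.98%, -0.04 beside 0.02) and 23 and 4 in megakaryocytes over erythroid cells (48.4%, 1.26 beside 0.11). *KITLG*, which encodes SCF, was at 263 and 246 CPM in arterial and 62.2 and 76.2 in venous endothelium (1.99 ± 0.26, adjusted p = 8.37e-06), the reverse of *CSF1*. Its receptor gene *KIT* was at 3.72 and 3.21 CPM in arterial and 23.8 and 21.9 in venous endothelium (-2.60 ± 0.37, adjusted p = 1.72e-05). The erythropoietin receptor gene *EPOR* was higher in erythroid cells than in megakaryocytes (-0.97 ± 0.22, adjusted p = 0.000812).

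The genes whose levels ran most like each member were sought by Pearson correlation of log2(CPM + 1) over the 28 lineage sums among 11538 genes, as a description, since sums of 1 organoid share a library. *CSF1R* ran closest to the Fc receptor gene *FCGR1A* (0.975), *CYTH4* (0.964) and *FCGR1B* (0.960), where *FCGR1A* and *FCGR1B* are near-identical copies whose reads can be split. *CSF3R* ran with *TRAF3IP3* (0.972), *ADGRE5* (0.964) and *PRAM1* (0.963), *CSF2RA* with *C1orf162* (0.949), *HRH2* (0.947) and *KIAA0930* (0.935), and *CSF2RB* with *RHOH* (0.946), *GAPT* (0.934) and *NCF4* (0.933). *IL5RA* ran with *TRDC* (0.908), *SLC45A3* (0.849) and *AVP* (0.838), *CSF1* with *TMEM45A* (0.869), *LINC01091* (0.852) and *OLFML3* (0.843), and *IL3RA* with *RCAN1* (0.852), *ACOT11* (0.801) and *PHACTR1* (0.797). The values for the sparse *IL34* were the lowest, with *CDKL3* (0.741), *NPAS3* (0.733) and *F8* (0.707).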

How the data were processed

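Whole organoids were dissociated on day 14 and each gave 1 droplet-based 3′ library. Per the study's methods, Cell Ranger 7.0.0 was run by the authors on GRCh38, intronic reads included, and the deposited values are raw UMI counts per gene and barcode. The depth equalization and ambient RNA removal that the study describes are not in these counts, and free RNA was not removed here. Depth was 191152562 and 233818881 UMIs, with medians of 7842 and 8284.5 per barcode, and intervals cover counting error only.

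Cells with 50 to 11000 genes and under 30% mitochondrial UMIs were kept, the study's limits. The members and all lists were chosen with earlier results of these data known. Each gate asked for a minimum number of lineage genes and UMIs (for macrophages, 3 UMIs over 2 of 3 C1Q genes and 2 general myeloid genes). Once the gate genes' levels had been seen, 5 shared genes (*VCAN*, *LYZ*, *MYL4*, *RYR2*, *TNNT2*) were dropped from the monocytic and cardiomyocyte gates, the cardiomyocyte gate was set to 3 genes, and the monocytic gate was made to require 2 general myeloid genes. Cells in gates of different families were left out as mixed, as were stromal cells in both the epicardial and LUM-high gates. Myeloid cells took the gate with at least 2 times the UMIs of the next and were otherwise mixed. Doublets were not treated in any other way.

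UMIs were summed per lineage and organoid, and the 14 lineages with at least 20 cells in each organoid (28 sums) were fitted together with edgeR 4.0.16 (TMM, filterByExpr, quasi-likelihood test, Benjamini-Hochberg adjustment over 19803 genes, threshold 0.05). SE is the log2 fold change divided by the root of F. *IL34* and *CSF3* failed the filter. The study compares clusters over cells. Here the organoid was the unit, and p-values rest on the spread between 2 organoids of 1 line. That spread was estimated over all 14 lineages at once. The main fit held no organoid term, so the sums of 1 organoid were treated as independent. The lineages of 1 organoid are paired by their source: differences between organoids correlated between lineages with a median r of 0.21 over 91 lineage pairs (-0.01 to 0.63). Cells were thinned without replacement to 2000 and 4000 UMIs, leaving out shallower cells. The fit was run on simulated counts that had no organoid effect, so that check does not bear on the pairing. Genes named are the 9 members, a fixed pathway list, and the 3 genes most like each member with at least 50 gated UMIs in each organoid. Alternatives were DESeq2 1.42.0, no filter, the organoid block, doubled gate cutoffs, 5% of free RNA removed, cells above 40000 or below 2000 UMIs left out, and each organoid alone. Added after the data were seen were the gates as written at the start, cells with shared barcodes left out, and the 2 neutrophil precursors with over 30 *CSF1* UMIs left out. Some items of the pathway list and of the medium are not reported here.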

Additional observations from a re-analysis of the deposited data

Results flagged for a closer look

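All members but *CSF3*, which had 1 UMI there, had UMIs above the limit of 3 in cells that no comparison used, the mixed cells, ungated cells and lineages too small to fit. These cells held 36.6% and 43.9% of the *CSF1* UMIs, 39.8% and 42.8% of *IL34*, 39.0% and 41.3% of *CSF1R* and 39.9% and 41.7% of *CSF2RA* in organoids 32.7 and 33.10. They held 38.6% and 45.0% of *CSF2RB*, 40.1% and 40.6% of *CSF3R*, 35.9% and 41.4% of *IL3RA* and 36.6% and 42.3% of *IL5RA*. The same cells, 6967 and 7882 of those kept, contributed 35.8% and 41.2% of all UMIs.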

How the results depend on the processing

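Values were recomputed under 14 alternative settings, 3 of them chosen after the data were seen. Of the member fold changes, 14 gained a call, 9 lost one and 4 reversed, and the other tested values kept their side of the threshold. Called values among them kept direction, whereas direction was not compared where neither fit gave a call. Of the values in 1 organoid alone, which have no test, 50 moved. Those 4 were *CSF1* in neutrophil precursors over monocytic cells, which was -0.62 without the 2 *CSF1*-rich cells and ranged from 0.00 without organoid 32.7 to 3.93 without organoid 33.10, and in eosinophil-lineage cells over neutrophil precursors, which was 0.70, and 5.80 to -3.69 in the same order. Organoid 33.10 held 0 *CSF1* UMIs in neutrophil precursors and in monocytic cells and 1 in eosinophil-lineage cells. The values of 0.00 and 5.80 without organoid 32.7 therefore rest on counts of 0 and 1. Of the counts of called genes, 75 stayed within 1.5 times. Without the filter on low counts 1648 genes in place of 1039 were called for eosinophil-lineage cells over neutrophil precursors, and with organoid as a replicate block 3451 in place of 1977 for epicardial-type over LUM-high stroma. The block also brought *CSF2RB* in macrophages over monocytic cells to -1.03 (adjusted p = 0.0439) and *IL5RA* in epicardial-type over LUM-high stroma to -2.87 (adjusted p = 0.0195), and changed no other call of a member. Both were also called without the filter on low counts (adjusted p = 0.00160 and 0.00468). *IL3RA* in epicardial-type over LUM-high stroma lost its call with doubled gate cutoffs (adjusted p = 0.0959) and with the gates as written at the start (adjusted p = 0.190), which left at least 20 cells for 5 of the 8 comparisons. DESeq2 lowered the share of higher calls from 58.6% to 38.5% in macrophages over monocytic cells and from 53.3% to 35.4% in neutrophil precursors over monocytic cells. Its scaling shifted the median of all genes by -0.10 in endothelium over stroma. The cause of these changes was not tested. The monocytic cells and neutrophil precursors of organoid 33.10 numbered only 22 and 29.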
